A study of Mus musculus with 10 samples.

Results

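A set of 10 genes of the epidermal growth factor (EGF) family was followed in psoriasis-like mouse skin: the ligands Areg, Ereg, Hbegf, Epgn, Tgfa, Btc and Egf and the receptors Egfr, Erbb2 and Erbb3. They were taken by gene symbol from the deposited count tables, which matched 10 of 10 genes among 24358 symbols. The 10 libraries came from full-thickness dorsal skin of 5 C57Bl/6 mice, each giving 1 lesional and 1 uninvolved biopsy, so that lesional and uninvolved skin could be compared within a mouse and between genotypes. All 5 mice carried the interleukin-17C (IL-17C) transgene, and no mouse without it is part of this series as used here. The labels call mice 2275, 2296 and 2237 IL-17C+ and mice 2465 and 2392 IL-17C+KO, where the series title names IL-6 as the knocked-out gene. Ages were 10 or 14 weeks, but neither the age of each mouse nor the promoter driving the transgene is stated in the labels, and age and genotype cannot be told apart.

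EGF receptor ligands are made as membrane-anchored precursors that metalloproteases of the ADAM family cut to release the active growth factor. All 7 ligands bind the receptor EGFR. ERBB2 has no known ligand of its own and acts as the partner of other family members, and ERBB3 binds neuregulins and signals mainly through PI3 kinase. In epidermis several of these ligands act on the keratinocytes that release them, driving proliferation and migration in wound repair. Amphiregulin (Areg) is known from psoriatic plaques.

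Between 17790 and 18431 genes had at least 1 count in a library. Levels are given below as CPM (counts scaled to the library total) after TMM scaling, a correction for differences in RNA composition. Il6, the gene named as knocked out, had more counts under the label IL-17C+KO. It had 4 to 9 counts in uninvolved and 18 to 69 in lesional libraries labelled IL-17C+. Under the label IL-17C+KO it had 55 and 71 and then 300 and 315. Counts per gene do not tell an intact from a disrupted Il6 transcript, so they cannot settle whether the labels hold. Every direction between genotypes therefore rests on the labels. Il17c, the transgene, ranged from 534.6 to 15175 CPM. The uninvolved library of mouse 2237 had the highest Il17c value of all and, at 6678 summed CPM over 10 skeletal muscle genes, the lowest muscle level among uninvolved libraries, which otherwise held 12752 to 51865. Summed keratinocyte transcripts (9 genes, all with counts) lay between 15410 and 33347 CPM in uninvolved and between 18473 and 25330 in lesional libraries, so keratinocyte transcripts were abundant in every library. In such bulk tissue, fewer cells of a type and less RNA per cell cannot be told apart.

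Of the ligand genes, 4 lie together on mouse chromosome 5 (GRCm38, GENCODE M21 annotation), over 375.5 kb: Epgn (91027464 to 91035215, plus strand), Ereg (91074622 to 91093646, plus strand), Areg (91139599 to 91148432, plus strand) and Btc (91357261 to 91402994, minus strand). Tgfa lies on chromosome 6 (86195223 to 86275719) and Egf on chromosome 3 (129677565 to 129755316). The receptors lie on chromosome 11 (Egfr, 16752203 to 16918158, and Erbb2, 98412470 to 98437716) and chromosome 10 (Erbb3, 128567523 to 128589652). Promoter windows from 250 bases before to 50 after the start site were matched in RefSeq (GRCm38.p6) for 7 of the 10 genes; Ereg, Hbegf and Erbb3 had no entry. The windows of 3 neighbours on chromosome 5 are shown because their lesional differences, given below, had different signs: higher for Areg, mixed for Epgn and lower for Btc. They span chr5:91139349-91139648 (Areg, plus strand), chr5:91027267-91027566 (Epgn, plus strand) and chr5:91402945-91403244 (Btc, minus strand). Capitals mark every match to the motifs searched.
Areg: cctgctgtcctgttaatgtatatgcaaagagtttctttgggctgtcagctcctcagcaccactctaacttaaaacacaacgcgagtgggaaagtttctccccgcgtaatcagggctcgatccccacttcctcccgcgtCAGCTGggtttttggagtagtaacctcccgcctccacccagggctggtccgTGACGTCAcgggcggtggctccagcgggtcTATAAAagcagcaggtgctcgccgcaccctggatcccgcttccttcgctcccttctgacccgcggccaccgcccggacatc
Epgn: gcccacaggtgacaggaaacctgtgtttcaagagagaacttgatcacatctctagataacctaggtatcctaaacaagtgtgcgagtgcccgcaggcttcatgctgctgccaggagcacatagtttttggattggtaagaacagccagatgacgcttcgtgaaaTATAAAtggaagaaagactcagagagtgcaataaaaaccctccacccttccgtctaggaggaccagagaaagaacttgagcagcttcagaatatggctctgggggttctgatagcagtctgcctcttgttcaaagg
Btc: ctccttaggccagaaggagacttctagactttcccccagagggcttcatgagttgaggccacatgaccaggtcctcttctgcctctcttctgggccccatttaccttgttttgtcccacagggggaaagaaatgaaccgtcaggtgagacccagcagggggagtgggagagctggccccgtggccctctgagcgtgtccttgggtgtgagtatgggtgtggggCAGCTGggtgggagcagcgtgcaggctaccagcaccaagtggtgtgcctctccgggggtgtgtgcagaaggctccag

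The 4 motifs were searched on both strands, and no match overlaps another. The Areg window held the cyclic AMP response element TGACGTCA at position -61, counted from the start site as 0, which 1.79% of 32851 promoter windows of the same length hold. It also held TATAAA at -31 (13.6% of windows) and CAGCTG, a form of the E-box bound by MyoD-type factors, at -112 (16.3%). Btc held CAGCTG at -27 and Epgn TATAAA at -86. Positions are counted from the RefSeq start site, which for Epgn lies downstream of the GENCODE gene start at 91027464. The Epgn TATAAA lies closer to that GENCODE start than to the RefSeq one. The AP-1 letters TGANTCA (7.81% of windows) were in none of the 7 matched genes. A match is a description of the letters only, and binding was not measured in these libraries.

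Amphiregulin and heparin-binding EGF-like growth factor (Hbegf) were higher in lesional skin in 5 of 5 mice, and betacellulin (Btc) and Egf were lower in 5 of 5 mice. The 4 differences were 1.92 ± 0.68, 1.64 ± 0.63, -1.19 ± 0.38 and -2.69 ± 0.70 on the log2 scale (SE, 5 mice), or 3.79-fold, 3.13-fold, 0.438-fold and 0.155-fold of the uninvolved level. None of the 10 genes passed a false discovery rate of 0.05 in edgeR's quasi-likelihood test with the mouse as a block and Benjamini-Hochberg adjustment (0 of 10), where 0.0497% of 16083 genes passed. At an unadjusted p under 0.05, 2 of 10 genes were higher and 2 lower, against 10.1% and 11.5% of all genes. The same 4 genes were those with 1 sign in all 5 mice, which 9.12% of all genes showed upwards and 9.75% downwards. The median over the 10 genes was 0.11 and over all genes tested -0.01.

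**Figure D1:**
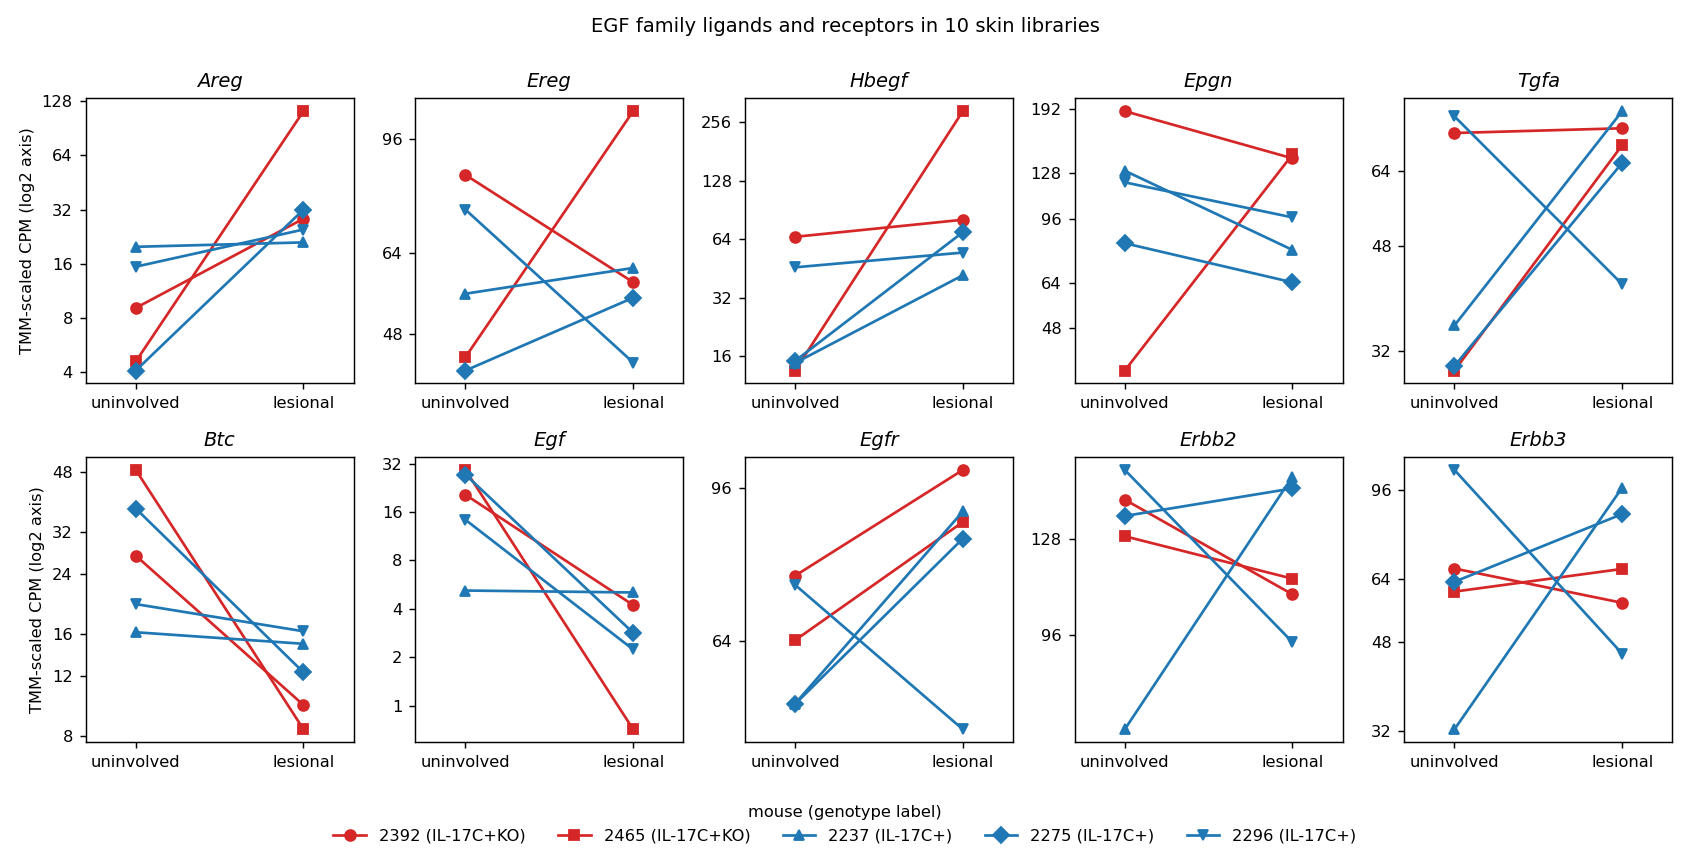
TMM-scaled CPM (log2 axis, a separate scale in each panel) of the 10 genes in uninvolved and lesional skin, with 1 line per mouse, blue for the label IL-17C+ and red for IL-17C+KO. Lines of Areg and Hbegf run upwards and those of Btc and Egf downwards in all 5 mice, with the steepest lines in mouse 2465, while the receptor lines cross.

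Areg, which encodes the ligand amphiregulin, stood at 4.10, 15.4 and 19.9 CPM in uninvolved skin of IL-17C+ mice 2275, 2296 and 2237 and at 4.61 and 9.12 CPM in mice 2465 and 2392 labelled IL-17C+KO. In lesional skin, in the same order, it stood at 32.0, 24.8 and 21.0 CPM and at 112 and 28.5 CPM. Every lesional library was above every uninvolved one, but by a narrow margin (21.0 against 19.9 CPM, both from mouse 2237), and lesional skin of mouse 2465 stood far above the rest. The lesional minus uninvolved differences of log2 CPM were 2.94, 0.68, 0.08, 4.58 and 1.63. The adjusted p over all mice was 0.169 in edgeR's test.

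Hbegf (GRCm38 chromosome 18, 36504927 to 36515805), a ligand shed early in wound repair, stood at 15.2, 46.0 and 14.8 CPM in uninvolved skin of IL-17C+ mice and at 13.5 and 66.0 CPM in the others. In lesional skin it stood at 69.7, 54.8 and 41.9 CPM and at 293 and 80.8 CPM. Uninvolved skin of mouse 2392 was above lesional skin of mice 2296 and 2237, so the groups overlap, although each mouse was higher in its own lesion. The differences were 2.19, 0.25, 1.49, 4.42 and 0.29, and the adjusted p was 0.193.

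Btc encodes betacellulin, a ligand that also activates ERBB4. It stood at 37.4, 19.6 and 16.2 CPM in uninvolved skin of IL-17C+ mice and at 48.6 and 27.2 CPM in those labelled IL-17C+KO. Its levels in lesional skin were 12.3, 16.3 and 15.0 CPM and then 8.38 and 9.88 CPM. The groups touch only through mice 2237 and 2296, whose biopsies differed by -0.11 and -0.26. In mice 2275, 2465 and 2392 the differences were -1.60, -2.52 and -1.45, and the adjusted p was 0.146.

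Egf, the founding ligand of the family, was the least abundant member. It stood at 27.3, 14.3 and 5.20 CPM in uninvolved skin of IL-17C+ mice and at 29.2 and 20.5 CPM in those labelled IL-17C+KO. Lesional libraries held 2.84, 2.24 and 5.06 CPM and 0.713 and 4.22 CPM, the lowest resting on 16 counts. All lesional libraries were below all uninvolved ones, again by a narrow margin in mouse 2237. The differences were -3.23, -2.63, -0.04, -5.21 and -2.26, and the adjusted p was 0.116. Among the 10 genes, Areg alone had all lesional libraries above all uninvolved ones and Egf alone all below, which 2.98% and 4.27% of all genes did.

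The call on these 4 genes depended on the test. DESeq2 placed them under the threshold, with adjusted p of 0.00396 (Areg), 0.0122 (Hbegf), 0.0181 (Btc) and 4.14e-05 (Egf). It called 2036 of all 16083 genes, where edgeR's test called 8. Over the 10 alternative analyses the adjusted p ran up to 0.448, 0.477, 0.400 and 0.342, and 1, 1, 1 and 3 of them were under 0.05. Leaving out mouse 2237 gave Egf a log2 difference of -3.29 and an adjusted p of 0.0309 in edgeR's test, where 1249 of 15934 genes were called. Leaving out mouse 2465 gave Areg 1.31 and Hbegf 1.05. P-values measure the spread between these mice only.

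**Figure D2:**
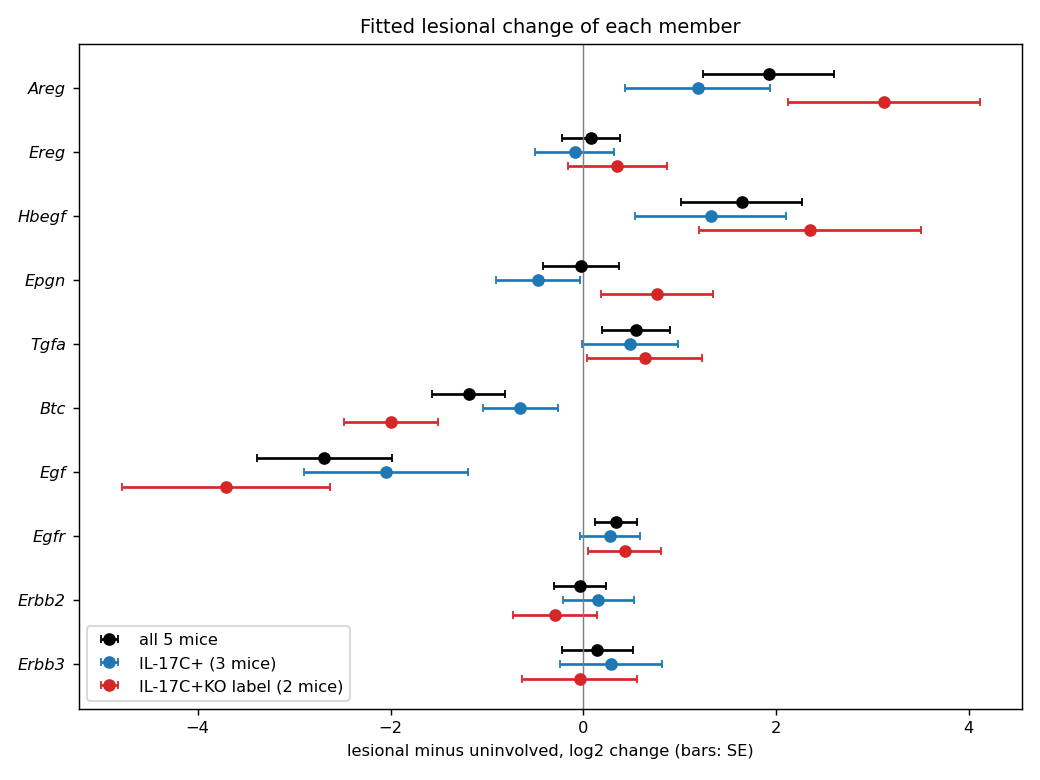
Fitted lesional minus uninvolved log2 change of each gene (points) with its SE (bars) over all 5 mice (black), in the 3 IL-17C+ mice (blue) and in the 2 mice labelled IL-17C+KO (red). The SE of both genotype estimates rests on a spread shared over the 5 mice. Areg and Hbegf lie above 0 and Btc and Egf below it in all 3 estimates, and the 3 receptors lie near 0.

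The lesional differences of the other ligands varied in sign from mouse to mouse. Transforming growth factor alpha (Tgfa), an autocrine ligand of keratinocytes, ran from 29.7 to 78.9 CPM in uninvolved and from 41.4 to 80.6 CPM in lesional libraries. Its differences were 1.12, -0.93, 1.19, 1.25 and 0.03, that is, higher in 4 of 5 mice and lower in mouse 2296, with a fitted difference of 0.55 ± 0.36 (adjusted p = 0.418). Epiregulin (Ereg) ran from 42.2 to 84.6 CPM and from 43.4 to 106 CPM, with differences of 0.37, -0.78, 0.13, 1.26 and -0.55 and a fitted difference of 0.08 ± 0.31 (adjusted p = 0.903). Epigen (Epgn), a ligand of low affinity, ran from 36.8 to 190 CPM and from 64.2 to 144 CPM. It was lower in 4 of 5 mice (differences of -0.36, -0.32, -0.72 and -0.43) and higher by 1.97 in mouse 2465, which had the lowest uninvolved and the highest lesional value, and the fitted difference was -0.02 ± 0.40 (adjusted p = 0.982).

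Receptor transcripts spanned a narrower range than those of Areg, Hbegf and Egf. Egfr, the receptor of all 7 ligands, ran from 54.1 to 76.0 CPM in uninvolved and from 50.6 to 101 CPM in lesional libraries. It was higher in lesional skin of 4 mice (0.63, 0.73, 0.45 and 0.40) and lower by 0.55 in mouse 2296, with a fitted difference of 0.34 ± 0.22 (adjusted p = 0.408). Relative to the summed keratinocyte transcripts, Egfr was higher in 5 of 5 mice, by 0.08 to 0.72. In mouse 2296 this came about only because the keratinocyte sum itself differed by -0.67. Of the 9 genes in that sum, 4 had positive and 5 negative fitted differences. The share of all genes with such counts was not taken, here or for the ratios below. Erbb2 ran from 72.5 to 157 CPM and from 94.1 to 154 CPM, with a fitted difference of -0.03 ± 0.27 (adjusted p = 0.957). Erbb3 ran from 32.3 to 105 CPM and from 45.6 to 97.1 CPM, with a fitted difference of 0.15 ± 0.37 (adjusted p = 0.850). For both co-receptors mice 2296 and 2237 lay at opposite ends: Erbb2 differed by -0.74 and 1.09 and Erbb3 by -1.21 and 1.58. The 2 transcripts tracked each other over the 10 libraries (Pearson r = 0.94, a description over libraries that share 5 mice). The fourth receptor, Erbb4, had 0 to 4 counts in every library and was not tested.

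The lower Egf and Btc levels moved together with skeletal muscle transcripts. The summed CPM of 10 muscle genes (all 10 with counts) was 6678 to 51865 in uninvolved libraries, with a median of 30408, and 858 to 7120 in lesional ones, with a median of 4224. The muscle differences per mouse were -3.09, -2.04, 0.09, -5.92 and -2.55: as for Egf, the farthest from 0 was that of mouse 2465 and the nearest that of mouse 2237. Relative to the muscle sum, the Egf difference was -0.14, -0.60, -0.13, 0.71 and 0.29, so that Egf per muscle transcript was lower in 3 mice and higher in 2, by less than 1 log2 unit. The Btc difference relative to muscle was 1.49, 1.77, -0.20, 3.39 and 1.10, which means that Btc was lower in lesions by less than the muscle genes in 4 of 5 mice. Over the 10 libraries, log2 CPM of Egf had a Pearson r of 0.99 and that of Btc an r of 0.93 with log2 of the muscle sum, and Areg had an r of -0.97. Relative to keratinocyte transcripts, Egf was lower in 5 of 5 mice (-5.47 to -0.69) and Btc in 4 of 5 (-2.79 to 0.40).

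**Figure D3:**
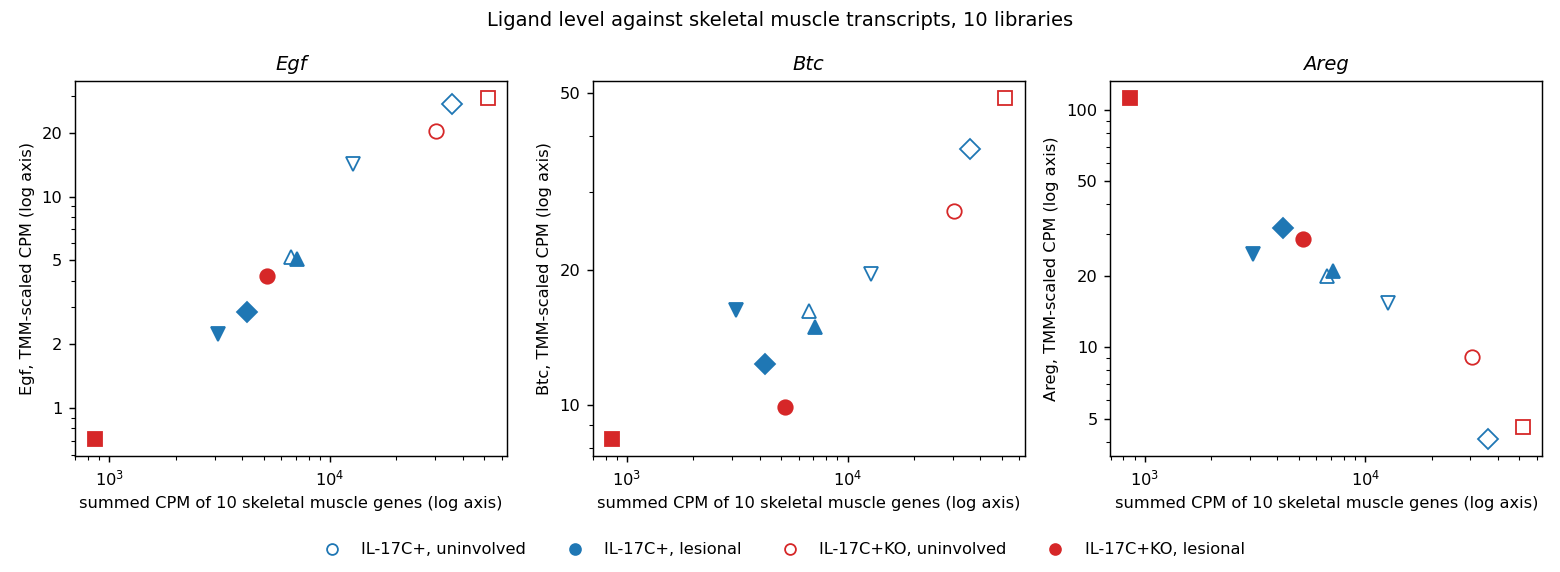
TMM-scaled CPM of Egf, Btc and Areg (log axes) against the summed CPM of 10 skeletal muscle genes in the 10 libraries, open for uninvolved and filled for lesional skin, blue for IL-17C+ and red for IL-17C+KO labels. Egf lies along a rising line (r = 0.99) and Areg along a falling one (r = -0.97), and both biopsies of mouse 2237 (triangles pointing up) lie side by side.

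The genes most like each ligand over the 10 libraries, by Pearson r of log2 CPM among 13654 candidates, are given next, as a description over libraries from 5 mice. For Egf they were Clic5, the triadin gene Trdn of the muscle calcium release complex, and Popdc2 (r = 0.995, 0.993 and 0.992). For Btc they were Myod1, the master regulator of skeletal muscle fate, Lrrc14b and Kbtbd13 (r = 0.983, 0.982 and 0.982). For Areg they were Prkcsh, Anp32b and the histone chaperone subunit Ssrp1 (r = 0.974, 0.973 and 0.972), and for Hbegf Gpr176, Ppm1g and the eIF2 phosphatase subunit Ppp1r15b (r = 0.986, 0.978 and 0.969). For Epgn the list held the chemokine Ccl20 (r = 0.913) and Tnfrsf12a, the receptor of TWEAK (r = 0.911), after Senp2 (r = 0.923). For Tgfa it was led by Ranbp2 (r = 0.959), for Ereg by Nup62 (r = 0.889) and for Egfr by Sfmbt1 (r = 0.965). Erbb2 was followed most closely by Rapgefl1 (r = 0.983) and Erbb3 by Cdc42bpg (r = 0.966), which was also among the 3 genes most like Erbb2 (r = 0.980).

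Transcripts of other cell types and states also differed along with Areg and Hbegf. Summed transcripts of wound and activated keratinocytes (9 genes) were higher in lesional skin in 5 of 5 mice, from 1425 to 9780 CPM in uninvolved and from 11259 to 37045 CPM in lesional libraries. Neutrophil transcripts (7 genes) were also higher in 5 of 5 mice (11 to 51.5 against 33.8 to 253 CPM), as were those of fibroblasts (8 genes, 2724 to 4435 against 5890 to 29642 CPM). Mast cell transcripts (8 genes) were higher in 5 of 5 mice (177 to 275 against 305 to 917 CPM), and Schwann cell transcripts (8 genes) were lower in 5 of 5 (233 to 798 against 197 to 321 CPM). Transcripts of the growing (anagen) hair follicle (12 genes) spanned 50.5 to 11200 CPM in uninvolved and 39.3 to 8734 CPM in lesional libraries. Their differences were 7.44 and 5.49 in mice 2275 and 2465, which also had the largest Areg differences, and -0.89, -0.50 and -0.99 in mice 2296, 2237 and 2392. Adipocyte transcripts (9 genes) spanned 3229 to 5733 CPM in uninvolved and 569 to 4723 CPM in lesional libraries, and were higher in 1 of 5 mice. Their differences were -1.51, -0.70, -0.68, -3.33 and 0.55 in mice 2275, 2296, 2237, 2465 and 2392. Log2 of their sum had a Pearson r of -0.84 with Areg, -0.79 with Hbegf and 0.83 with Egf. In each of these lists all counted genes were above 0 counts in at least 1 library. The part of these lists in the Areg and Hbegf differences was not tested. Relative to the basal and spinous keratinocyte sum, Hbegf was higher in 5 of 5 mice (0.61 to 4.16) and Areg in 4 of 5 (-0.57 to 4.32), the exception being mouse 2237.

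Within the library, ligand levels were compared per transcript length with the deposited FPKM values. Epgn had the highest median FPKM, 61.3 (20.2 to 101 over 10 libraries), followed by Erbb2 at 23.1, Hbegf at 19.8, Areg at 18.3, Tgfa at 15.1, Erbb3 at 14.1, Ereg at 13.3, Egfr at 12.3, Btc at 5.22 and Egf at 1.0. Ranges of every pair of neighbours in this order overlapped, and Epgn was above Erbb2 in 9 and Btc above Egf in 10 of 10 libraries. The neighbours between Erbb2 and Egfr changed places often, for example Erbb2 above Hbegf in 5 of 10 libraries and Areg above Tgfa in 6.

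The make-up of the ligand pool differed between uninvolved and lesional skin, given here as shares with no test. Areg made up 3.95, 9.31, 14.0, 5.88 and 4.15% of the summed ligand FPKM in uninvolved skin of mice 2275, 2296, 2237, 2465 and 2392, and 22.5, 17.5, 15.6, 28.8 and 14.5% in lesional skin. Btc made up 13.4, 4.41, 4.22, 23.1 and 4.61% and then 3.23, 4.28, 4.15, 0.801 and 1.87%. The Areg share was higher and the Btc share lower in lesional skin of 5 of 5 mice, though Areg by little in mouse 2237 and Btc by little in mice 2237 and 2296. Epgn was the largest share in 9 of 10 libraries, between 30.0 and 60.3%, and in lesional skin of mouse 2465 Hbegf (34.4%) and Areg (28.8%) exceeded it (24.6%). The sum of the 7 ligands was 64.9 to 177 FPKM in uninvolved and 120 to 180 FPKM in lesional libraries apart from mouse 2465, whose lesion held 359.8.

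**Figure D4:**
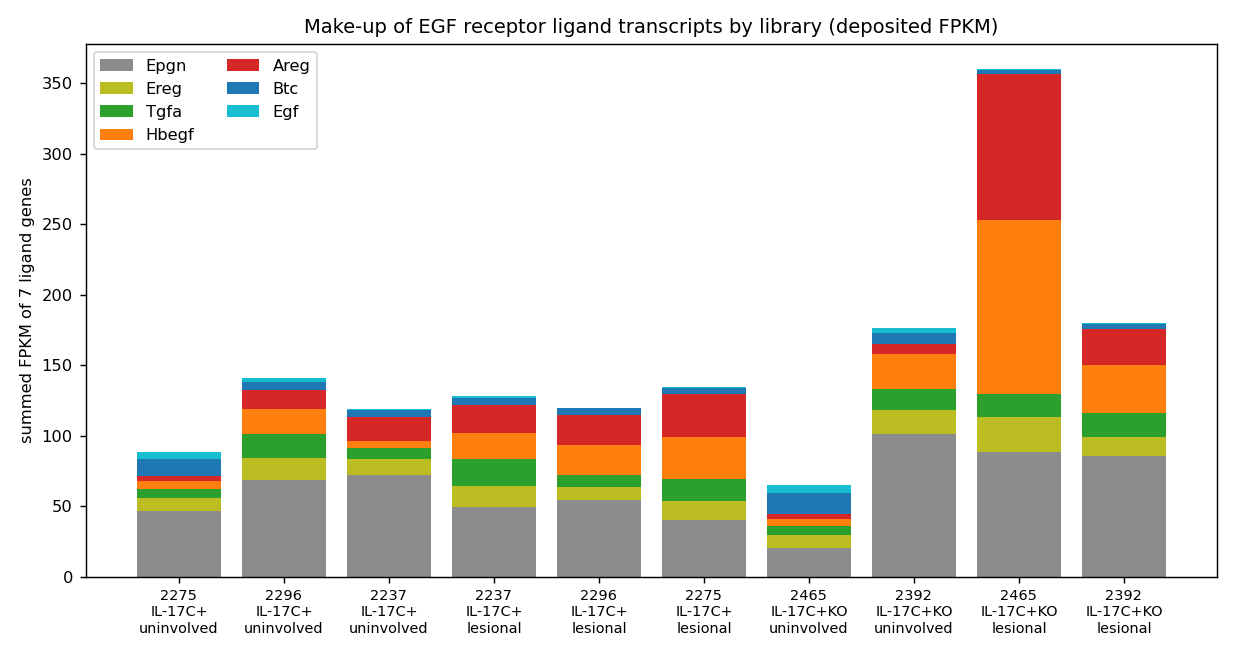
Deposited FPKM of the 7 ligand genes, stacked from 0, in each of the 10 libraries, ordered by genotype label and skin type. Epgn (grey) fills the largest part of 9 bars, and the lesion of mouse 2465 reaches 359.8 FPKM, mostly Hbegf (orange) and Areg (red).

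The lesional change was next taken in each genotype. Both changes came from 1 fit to all 10 libraries, so each SE rests on a spread shared over the 5 mice. In the 3 IL-17C+ mice it was 1.19 ± 0.75 for Areg, 1.32 ± 0.78 for Hbegf, -0.65 ± 0.39 for Btc and -2.05 ± 0.85 for Egf. There 0 of 10 genes were called, where 0% of all genes were. In the 2 mice labelled IL-17C+KO it was 3.12 ± 0.99, 2.36 ± 1.15, -2.0 ± 0.49 and -3.71 ± 1.08. Again 0 of 10 were called, where 0.0124% of all genes were, with adjusted p of 0.285, 0.443, 0.226 and 0.256 in edgeR's test. All 4 estimates were farther from 0 under the label IL-17C+KO, but the difference of the changes was 1.93 ± 1.22, 1.03 ± 1.39, -1.34 ± 0.61 and -1.66 ± 1.33, each with an adjusted p of 1 (0 of 10 genes called, 0% of all genes). Mouse 2465 weighed heavily on these values. Without it the change under the label IL-17C+KO, then that of mouse 2392 alone, was 1.64 for Areg, 0.29 for Hbegf, -1.46 for Btc and -2.28 for Egf, against 4.60, 4.43, -2.54 and -5.35 without mouse 2392. The difference of the changes without mouse 2465 was 0.45 for Areg, -1.03 for Hbegf, -0.81 for Btc and -0.23 for Egf. In IL-17C+ mice, leaving out mouse 2275 gave 0.39 for Areg, -0.19 for Btc and -1.34 for Egf, and leaving out mouse 2237 gave 1.81, -0.93 and -2.97. Epgn had estimates on opposite sides of 0, -0.47 ± 0.44 and 0.77 ± 0.58, and a difference of 1.23 ± 0.73 (adjusted p = 1), which was 0.04 without mouse 2465.

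Lesional skin was also compared between the labels, 2 libraries against 3. Hbegf was higher under the label IL-17C+KO by 1.78 ± 0.55, Areg by 1.47 ± 0.57 and Epgn by 0.86 ± 0.21, and Btc was lower, at -0.64 ± 0.22. None passed the threshold in edgeR's test (0 of 10, as for 0% of 15691 genes), with adjusted p of 0.586, 0.670, 0.577 and 0.615. At an unadjusted p under 0.05 there were 3 higher and 1 lower of the 10, against 4.77% and 2.53% of all genes. Hbegf and Epgn were higher and Btc lower in both libraries labelled IL-17C+KO than in all 3 labelled IL-17C+, and 25% of all genes were separated in this way. The values behind this were 80.8 and 293 against 41.9 to 69.7 CPM for Hbegf, 141 and 144 against 64.2 to 96.8 CPM for Epgn, and 8.38 and 9.88 against 12.3 to 16.3 CPM for Btc. With any single mouse left out, the difference of Epgn lay between 0.73 and 0.99 and that of Btc between -0.76 and -0.56. Without mouse 2465 the difference of Areg was 0.13 and that of Hbegf 0.54, and without mouse 2392 they were 2.15 and 2.43. Ereg was 0.66 ± 0.31 higher (adjusted p = 0.740), Egf differed by -0.42 ± 0.78, and Tgfa and the receptors differed by -0.27 to 0.36. Levels of Il17c and markers of other cell types differed between the same libraries, and their part was not tested. Il17c stood at 10881 and 2347 CPM in mice 2465 and 2392 against 10596 to 12470 CPM. Over the 10 libraries Il17c had a Pearson r of 0.40 with Hbegf, 0.75 with Areg, 0.33 with Epgn and -0.74 with Btc. Under the label IL-17C+KO, 6 of 6 endothelial genes (median log2 difference 0.89), 8 of 8 genes of monocytes and macrophages (0.99) and 8 of 8 fibroblast genes (0.99) had positive values. All 10 skeletal muscle genes (-0.79), all 12 anagen follicle genes (-2.25) and all 6 melanocyte genes (-1.17) had negative ones. Of all 15691 genes, 7959 had positive values. In mice 2465 and 2392, summed endothelial transcripts were 354 and 400.2 CPM against 159 to 251 CPM. Summed melanocyte transcripts were 271 and 71.1 CPM against 315 to 450 CPM. The sums of the other lists overlapped. They were 2428 and 39.3 against 1193 to 8734 CPM for follicle and 858 and 5197 against 3109 to 7120 CPM for muscle. Fibroblast sums were 29642 and 8709 against 5890 to 13254 CPM, and those of monocytes and macrophages 787 and 1514 against 465 to 1117 CPM.

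In uninvolved skin the labels did not separate the family. For 0 of 10 genes did the libraries labelled IL-17C+KO lie all above or all below the others, which 21.1% of 15568 genes did. In edgeR's test 0 of 10 passed, as for 0% of all genes. At an unadjusted p under 0.05 it was also 0 of 10, where 1.91% of all genes were higher and 1.82% lower. A count of 0 among 10 genes is close to those shares. The largest differences were -0.93 ± 0.69 for Areg, 0.68 ± 0.62 for Egf, 0.68 ± 0.76 for Hbegf and 0.64 ± 0.45 for Btc, with adjusted p of 0.849 to 0.851. Mouse 2465 had the lowest Epgn, Hbegf and Tgfa and the highest Btc and Egf of the uninvolved libraries. Here all 12 anagen follicle genes had negative values under the label IL-17C+KO (median -6.71), with summed levels of 53.9 and 78.0 CPM against 50.5 to 11200 CPM, the lowest of the latter being mouse 2275. All 9 genes of wound and activated keratinocytes (median -0.88) and all 6 melanocyte genes (-2.43) also had negative values. All 6 endothelial genes (median 1.07), all 10 skeletal muscle genes (1.17), all 8 Schwann cell genes (1.06) and all 8 genes of monocytes and macrophages (0.57) had positive values. So had 7608 of all 15568 genes. Muscle sums overlapped, at 51865 and 30408 CPM in mice 2465 and 2392 against 6678 to 35931 CPM. So did those of wound keratinocytes (1425 and 5219 against 1965 to 9780 CPM) and of monocytes and macrophages (845 and 551 against 399 to 669 CPM). Sums did not overlap for endothelium (389 and 330 against 75.7 to 269 CPM) or Schwann cells (798 and 533 against 233 to 465 CPM). Melanocyte sums did not overlap either (113 and 109 against 126 to 1274 CPM). Il17c stood at 535 and 1901 CPM in these mice against 1416 to 15175 CPM. The part of these markers and of Il17c was not tested.

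Some genes around the ligand cluster on chromosome 5 had larger lesional differences than the ligands. Within 500 kb of Areg lie 14 protein-coding genes, of which 13 were tested. Cxcl3, a neutrophil-attracting chemokine gene 353 kb before Areg, rose by 5.96 ± 0.54 in lesional skin over all mice (adjusted p = 0.0260), and Cxcl2, another such gene of the cluster, had a difference of 5.01 ± 0.97 (adjusted p = 0.0769). On the other side of Btc, Parm1 had a difference of 1.12 ± 0.16 (adjusted p = 0.0660), opposite in sign to Btc. Between these, Mthfd2l (-0.17 ± 0.33), Epgn and Ereg lay near 0. The Cxcl3 call was lost without mouse 2275, 2296, 2465 or 2392, when no gene was called.

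**Figure D5:**
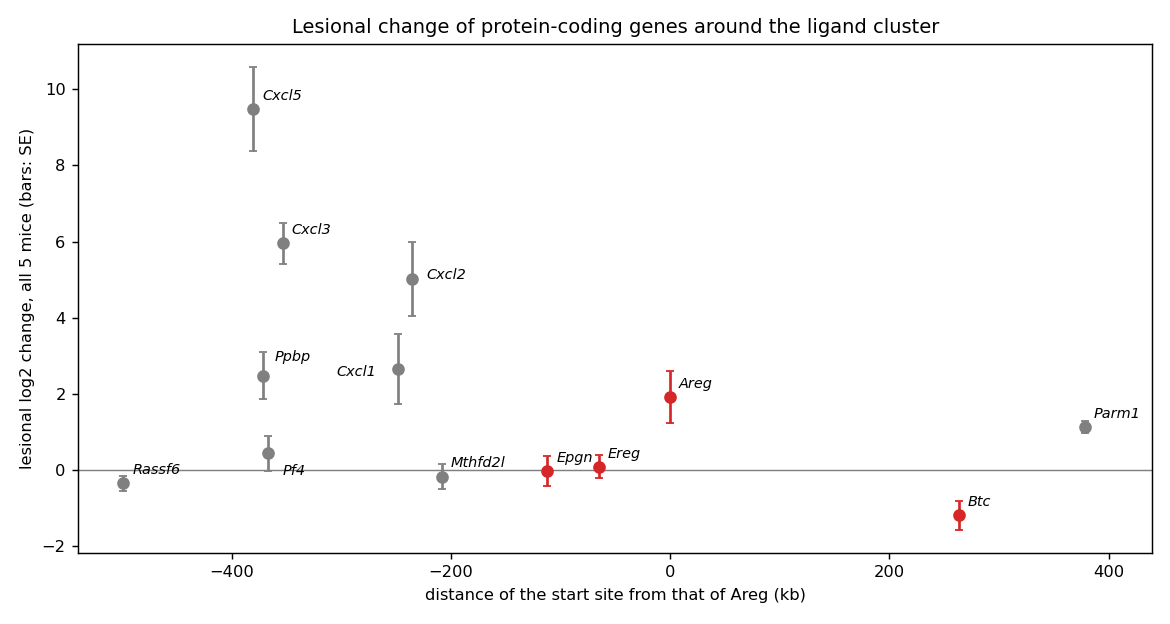
Fitted lesional log2 change over all 5 mice (points, bars are SE) of the 13 tested protein-coding genes within 500 kb of Areg, by distance of the start site from that of Areg in kb, with the 4 ligand genes in red. Chemokine genes to the left reach 9.47 (Cxcl5, a value that depends on the prior count because uninvolved counts were few), while Epgn and Ereg lie near 0 and Btc below it.

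Genes that act before and after the receptors were read from 5 lists. In none did a gene pass the threshold over all mice, and the counts below are at an unadjusted p under 0.05, to be read against the 10.1% and 11.5% of all genes above. Of 8 genes for ligand sheddases and their rhomboid-like regulators, 4 were higher and 0 lower, with a median of 0.33. Adam12 and Adam8 had differences of 2.81 ± 0.62 and 1.33 ± 0.28 (adjusted p = 0.0938 and 0.0853) and Adam10, a constitutive sheddase of Egf and Btc precursors, 0.41 ± 0.15 (adjusted p = 0.178). Adam17, the main sheddase of Areg and Hbegf, differed by 0.28 ± 0.20 (adjusted p = 0.445). Of the other ERBB ligands, neuregulin 1 (Nrg1) was 1.76 ± 0.76 higher (adjusted p = 0.241), Nrg2 differed by 0.33 ± 0.39 and Nrg4 by -0.57 ± 0.33, and 3 of the 5 genes of that list were tested.

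Adaptors and effectors of the RAS-ERK, PI3 kinase and STAT branches lay close to 0. Of 27 genes, 2 were higher and 2 lower, with a median of 0.01. Among them, the kinase genes Araf and Map2k1 had differences of -0.37 ± 0.14 and 0.33 ± 0.13. Among 18 feedback inhibitors of the receptor and of ERK, 2 were higher and 0 lower (median 0.21), namely Socs5 (0.57 ± 0.21) and Spry4 (0.78 ± 0.33), and the ERK phosphatase gene Dusp5 differed by 0.72 ± 0.31. Of 15 transcripts known to respond to ERK activity, 14 had positive values, as had 7943 of all 16083 genes tested, and 4 were higher, with a median of 0.48. The urokinase receptor Plaur had a difference of 2.63 ± 0.46 (adjusted p = 0.0683), Phlda1 of 1.5 ± 0.47 (adjusted p = 0.146) and Ier3 of 1.35 ± 0.37 (adjusted p = 0.122), whereas Etv5 and Myc differed by 0.03 ± 0.19 and 0.16 ± 0.18. The ERK-responsive and feedback lists share Spry2, Spry4, Dusp4 and Dusp6.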

How the data were processed

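RNA of 10 mouse skin biopsies was sequenced. The submitters' processing notes name mm10 and the tools cutadapt 1.6, TopHat2 2.0.12, Cufflinks 2.2.1 and HTSeq; settings, strand use and annotation are not stated there. The deposited count values are whole numbers per gene symbol, and the deposited FPKM values, normalised by the authors to length and depth, were used only to compare genes. A library held between 21056850 and 31072491 counts, so that 3 counts equal 0.0965 to 0.142 CPM.

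The main test was edgeR 4.0.16 in R 4.3.3 (filterByExpr, TMM, robust quasi-likelihood F tests, Benjamini-Hochberg adjustment over all genes, threshold 0.05). Lesional and uninvolved skin were compared with the mouse as a block, since the labels and design text tie both biopsies to 1 animal; the deviations of a mouse's 2 libraries from their group means had correlations of -0.12 to 0.03. Labels were compared within each skin type. The SE is the log2 change over the root of its F value, and per-mouse differences use log2 CPM (prior count 2). Alternatives were DESeq2 1.42.0, limma-voom (limma 3.58.1), RLE scaling, no low-count filter, no block and each mouse left out. The scripts were run on simulated data without differences between mice, which cannot show how the tests handle the spread between these mice. Named genes were the 10 members, the 3 smallest p-values of each pathway list (1 gene of these is not reported here), the 3 most alike genes per member (mean of at least 1 CPM), and Il6 and Il17c; Adam17, Etv5, Myc, and the neighbours of Areg were chosen after their values were seen. Members and lists were chosen with earlier results of these data known. Sequences are from RefSeq (GRCm38.p6) and coordinates from GENCODE M21.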

Additional observations from a re-analysis of the deposited data

Results flagged for a closer look

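Within the 10 genes, the lesional minus uninvolved differences of the 5 mice were checked for a single mouse far from the others, a check that flags about 1 in 20 groups by chance. The Epgn difference of 1.97 log2 units in mouse 2465 stood apart from the other 4 mice, which lay between -0.72 and -0.32. The Egfr difference of -0.55 in mouse 2296 stood apart from the other 4, which lay between 0.40 and 0.73.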

How the results depend on the processing

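The number of genes called over all mice was 8 with the mouse as a block and edgeR's test, 891 with no replicate block, 15 with no low-count filter, 2036 with DESeq2 and 4 with limma-voom, and it ran from 0 to 1249 with single mice left out (1249 without mouse 2237, 0 without any other). In IL-17C+ mice it was 0 (1031 genes at an unadjusted p under 0.05) and 247 with DESeq2. In the mice labelled IL-17C+KO it was 2, with 0 without the replicate block, 5 with no low-count filter, 1157 with DESeq2 and 0 to 11 with single mice left out. The difference of the changes had 0 calls (188 at an unadjusted p under 0.05) and 6 with DESeq2. Lesional skin had 0 calls between labels (1145), 1 with no low-count filter and 213 with DESeq2, and uninvolved skin 0 (581), 11 with DESeq2 and 0 to 241 with single mice left out (241 without mouse 2275). The cause was not tested.

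Of the 10 genes, no replicate block called Egf over all mice (-2.64, adjusted p = 0.0367), and DESeq2 called Areg, Hbegf, Btc and Egf there and Areg, Btc and Egf in the mice labelled IL-17C+KO (adjusted p = 0.00398, 0.00478 and 0.000988, against up to 1 in other alternatives). The block changed no other call. limma-voom turned the sign of Epgn over all mice (0.029) and of Epgn (-0.37) and Erbb3 (0.10) between labels in uninvolved skin. Areg, Hbegf, Btc and Egf kept their sign in the lesional change over all mice and in each genotype under every alternative run. With single mice left out, values of the following genes changed sign. For the lesional change over all mice they ran from -0.46 to 0.17 for Epgn, from -0.30 to 0.15 for Erbb2, from -0.20 to 0.48 for Erbb3 and from -0.21 to 0.31 for Ereg. In IL-17C+ mice they ran from -0.31 to 0.62 for Erbb2, from -0.38 to 1.03 for Erbb3 and from -0.32 to 0.27 for Ereg. In the mice labelled IL-17C+KO they ran from -0.43 to 1.96 for Epgn, from -0.22 to 0.14 for Erbb3 and from -0.55 to 1.25 for Ereg. For the difference of the changes they ran from -0.27 to 0.39 for Egfr, from -0.91 to 0.016 for Erbb2, from -1.07 to 0.34 for Erbb3, from -0.46 to 1.34 for Ereg, from -1.03 to 3.11 for Hbegf and from -0.54 to 0.76 for Tgfa. Between labels in lesional skin they ran from -2.21 to 0.32 for Egf and from -0.0059 to 0.47 for Tgfa. Between labels in uninvolved skin they ran from -1.59 to 0.78 for Epgn, from -0.11 to 0.38 for Erbb2, from -0.40 to 0.42 for Erbb3, from -0.37 to 0.57 for Ereg, from -0.89 to 1.41 for Hbegf and from -0.69 to 0.66 for Tgfa. Where 1 mouse labelled IL-17C+KO was left out, the other was assumed to vary like the rest. Depth limits Egf, at 16 counts in its lowest library, and Erbb4, which was too low to test.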
